A study of Homo sapiens with 8 samples.

Results

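Noncoding repeat expansion disease genes are genes in which a short tandem repeat outside the protein-coding sequence, in an intron, an untranslated region or a promoter, can lengthen and cause disease. The 9 genes described here, FMR1, AFF2, DMPK, CNBP, ATXN10, PPP2R2B, NOP56, CSTB and TCF4, were taken by symbol from the 25268 gene symbols of the deposited tables, and each had 1 row with the status OK in all 8 samples. The samples were polyadenylated RNA from cultured human fibroblast lines, line 1 and line 2, transfected with an siRNA (a short double-stranded RNA that degrades its target mRNA) directed at SUPT4H1 or with a control siRNA that the series calls non-targeting. Each line had 2 SUPT4H1 siRNA samples and 2 control siRNA samples, 4 against 4 in all. The labels describe both lines as population controls, so no carrier of an expanded repeat is labelled here, and repeat length was not measured.

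Expanded repeats act in several ways in these diseases. A long CGG tract in the 5′ untranslated region of FMR1 silences the gene in fragile X syndrome, and a long CTG or CCTG tract in the RNA of DMPK or CNBP binds splicing regulators of the muscleblind family in myotonic dystrophy. SUPT4H1 encodes SPT4, which forms the elongation factor DSIF with SPT5 and travels with RNA polymerase II. In yeast and in mammalian cells, SPT4 is known for a part in transcription through expanded repeats. The comparison made here asks how the mRNAs of these genes, in lines not labelled as carriers, stood after SUPT4H1 siRNA.

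The repeats of 6 of the 9 genes were found in GENCODE 29 transcripts of the GRCh38 build. FMR1 had 10 CGG units followed, after a gap, by 9 more in its 5′ untranslated region, AFF2 had 15 GCC units in the untranslated region, DMPK 20 CTG units in its untranslated region, PPP2R2B 10 CAG units, TCF4 24 CTG units and NOP56 4 GGCCTG units. The tract of PPP2R2B lay in an untranslated region in 2 of its 10 protein-coding transcripts and in an intron in 6 of them. That of TCF4 lay in an intron in 23 of 63 and in an untranslated region in 1, and that of NOP56 in an intron in 2 of 3. The start of the TCF4 tract (chr18:55586204-55586233, minus strand) and the whole NOP56 tract (chr20:2652731-2652760, plus strand) are shown in the direction of transcription. Both were read from transcripts that carry the tract in an exon, while in other transcripts of these genes it is intronic. Capitals mark the repeat units.
TCF4: ttcatgCTGCTGCTGCTGCTGCTGCTGCTG
NOP56: cagGGCCTGGGCCTGGGCCTGGGCCTGcgc
The FPKM below are values of whole genes and give no measure of the repeats.

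Levels are given in FPKM from the tables the authors deposited, a measure of fragments corrected for transcript length and library size. The number of fragments is unknown, and precision is known only from the deposited intervals, whose half-width was between 2.63 and 9.43% of the value for the 8 members tested and between 43.3 and 205% for PPP2R2B. The 8 tables summed to between 288293 and 305680 FPKM. SUPT4H1 itself stood at 1.37 and 1.43 FPKM (line 1) and at 1.69 and 1.74 FPKM (line 2) where its siRNA was used, against 25.61 and 25.59 FPKM after control siRNA in line 1 and 26.18 and 28.31 FPKM after control siRNA in line 2. This was a log2 difference of -3.42 (limma adjusted p = 3.78e-11). All 10 fibroblast markers averaged at least 1 FPKM. Of the markers of other cell types, KRT5 and KRT1 (keratinocytes), CD3E (T cells) and SOX10 (melanocytes) were listed at 0 in every sample, the 6 endothelial markers summed to at most 0.108 FPKM, and 4 genes averaged at least 1 FPKM. These were KRT10 (8.35 FPKM after SUPT4H1 siRNA and 7.97 FPKM in control samples), CD14 (2.85 FPKM after SUPT4H1 siRNA and 2.52 FPKM in control samples), SMTN (28.9 FPKM after SUPT4H1 siRNA and 26.1 FPKM in control samples) and CNN1 (7.04 FPKM after SUPT4H1 siRNA and 4.78 FPKM in control samples). MITF (melanocytes) averaged 0.864 FPKM after SUPT4H1 siRNA and 0.841 FPKM in control samples. The keratinocyte markers summed to 7.86 to 9.26 FPKM after SUPT4H1 siRNA and 7.75 to 9.002 FPKM in control samples, the leukocyte markers to 2.77 to 3.23 FPKM after SUPT4H1 siRNA and 2.12 to 3.14 FPKM in control samples, and the melanocyte markers to 0.368 to 1.70 FPKM after SUPT4H1 siRNA and 0.326 to 1.66 FPKM in control samples. In the comparison described next, 5 of the 10 fibroblast markers were lower and 1 was higher over both lines, where 15.2% of all genes tested were lower and 26.9% higher, and in line 2 alone 9 were lower and 1 was higher. Both tested smooth muscle markers were higher over both lines, SMTN by 0.14 on the log2 scale (limma adjusted p = 0.00305) and CNN1 by 0.31 (0.0211). CNN1 was called in line 2 (0.54, limma adjusted p = 2.39e-04) and not in line 1 (0.09, 0.401), where it stood at 0.774 to 0.971 FPKM. Its difference between the lines was called (0.45, limma adjusted p = 0.0219). The smooth muscle marker DES, too low to be tested, went the other way, at 0.266 FPKM after SUPT4H1 siRNA and 0.871 FPKM in control samples. The summed level of the fibroblast markers was 11223.9 to 13164 FPKM after SUPT4H1 siRNA and 12490.5 to 13158 FPKM in the control samples, and that of the smooth muscle markers 24.3 to 48.6 FPKM after SUPT4H1 siRNA and 23.7 to 40.5 FPKM in the control samples. The part of these markers in the results was not tested.

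The changes of the 8 tested members were small, with one exception in one line. Across both lines FMR1, CSTB, DMPK and NOP56 rose, AFF2 and TCF4 fell, and CNBP and ATXN10 did not pass the test, while PPP2R2B was too low to enter it. The test was limma on log2(FPKM + 1) with the line as a block, over 11430 genes of mean FPKM 1 or more, adjusted by Benjamini-Hochberg with a threshold of 0.05. A log2 difference on this scale is SUPT4H1 siRNA minus control siRNA and understates the change of low genes. Of all genes tested, 42.1% were called, 26.9% higher and 15.2% lower, beside 6 of the 8 members, 4 higher and 2 lower, so that a call alone does not set a member apart. The members' median log2 difference was 0.06, against 0.03 over all genes tested, whose log2 differences had an SD of 0.19.

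**Figure D1:**
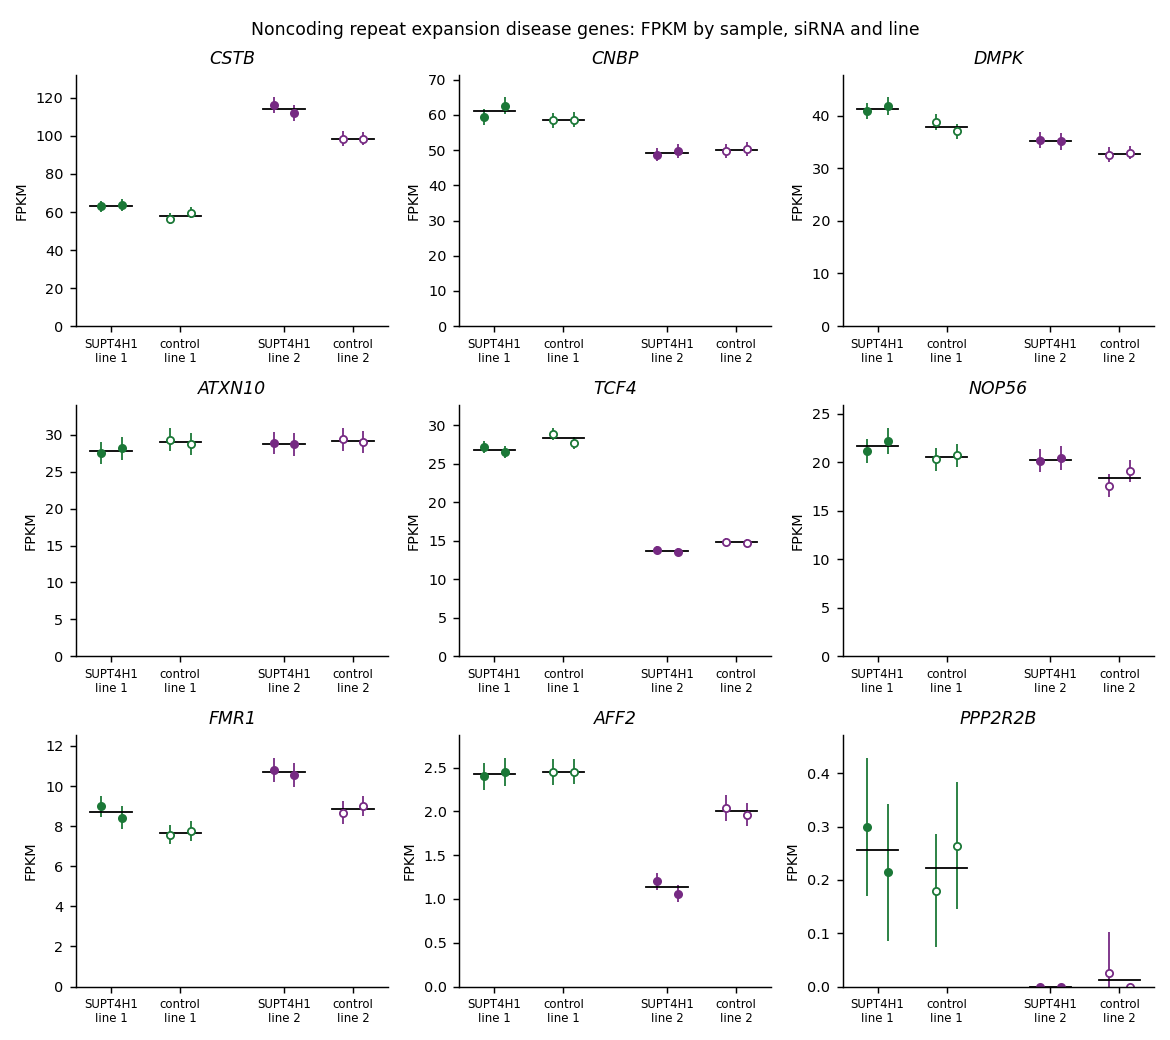
FPKM of the 9 genes in each of the 8 samples, with SUPT4H1 siRNA samples (filled) left of control siRNA samples (open), line 1 in green and line 2 in purple. Black bars are means of 2 samples and error bars are the deposited interval bounds. Of the tested genes, AFF2 in line 2 shows the widest gap between siRNAs relative to its control mean, with 1.20 and 1.06 FPKM after SUPT4H1 siRNA and 2.04 and 1.96 FPKM after control siRNA.

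FMR1 and AFF2 lie on the X chromosome and carry CGG-type repeats near their 5′ ends. FMR1 (X:146993469-147032647 in hg19, the build of the deposited loci) encodes FMRP, an RNA-binding protein that regulates translation. It stood at 8.98 and 8.42 FPKM after SUPT4H1 siRNA in line 1, against 7.58 and 7.76 FPKM in the control samples. Its line 2 samples were at 10.81 and 10.55 FPKM after SUPT4H1 siRNA, against 8.67 and 9.01 FPKM in the control samples. Both SUPT4H1 siRNA samples were above both control samples in each line. FMR1 was at 113% of the control mean in line 1 and at 121% in line 2, a log2 difference of 0.20 over both lines (SE 0.03, limma adjusted p = 0.00113). The rise passed the test within line 1 (limma adjusted p = 0.0147, but 0.0870 without the first control sample and 0.0992 without the first SUPT4H1 siRNA sample) and within line 2 (9.91e-04), and the difference between the lines did not (0.09, 95% interval -0.04 to 0.22, limma adjusted p = 0.416). The antisense gene FMR1-AS1, which overlaps FMR1, reached at most 0.0455 FPKM in any sample.

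AFF2 (X:147582139-148082193), the gene of the fragile X E site, encodes a nuclear protein related to scaffolds of transcription elongation complexes. The values in line 2 were 1.20 and 1.06 FPKM after SUPT4H1 siRNA, against 2.04 and 1.96 FPKM in the control samples. Line 1 gave 2.40 and 2.45 FPKM after SUPT4H1 siRNA, against 2.45 and 2.45 FPKM in the control samples. The groups were apart in line 2 and within a narrow range of each other in line 1. In line 2 AFF2 fell to 56.5% of the control mean, a log2 difference of -0.49 (SE 0.06, limma adjusted p = 8.09e-05), which was larger in size than that of 95.9% of the genes tested in that line. In line 1 the log2 difference was -0.01 (95% interval -0.14 to 0.11, limma adjusted p = 0.898). The difference between the lines was itself called (-0.48, SE 0.08, limma adjusted p = 0.00431), as was that of 9.89% of all genes tested (5.40% higher and 4.49% lower in line 2), and AFF2 was the 1 member of the 8 for which it was. Over both lines the log2 difference of -0.25 was called (limma adjusted p = 0.0448), and this call was lost without any 1 of the 4 samples of line 2 (adjusted p = 0.112 to 0.129), with the replicate number added to the line as block (0.0942), with genes of every level included (0.110) and with the short RNA and Y chromosome symbols kept (0.0526).

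DMPK and CNBP are the genes of the 2 forms of myotonic dystrophy. DMPK (19:46272967-46285815) encodes a serine/threonine kinase and has its CTG repeat in the 3′ untranslated region. In line 1 it stood at 40.9 and 41.7 FPKM after SUPT4H1 siRNA, against 38.7 and 37.0 FPKM in the control samples. Its line 2 samples were at 35.3 and 35.1 FPKM after SUPT4H1 siRNA, against 32.5 and 33.0 FPKM in the control samples. The groups did not overlap in either line. DMPK was at 109% of the control mean in line 1 and at 107% in line 2, a log2 difference of 0.11 (SE 0.02, limma adjusted p = 0.00514). Each line passed on its own (limma adjusted p = 0.0139 in line 1 and 0.0247 in line 2). In line 2 this call was lost without control replicate 1 (0.0965), SUPT4H1 siRNA replicate 1 (0.103) or SUPT4H1 siRNA replicate 2 (0.0780), after median-ratio scaling (0.128) and with no variance trend (0.0551). In line 1 it was lost without either the second control sample (0.122) or the second SUPT4H1 siRNA sample (0.0781).

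CNBP (3:128886658-128902810) encodes a zinc finger protein that binds nucleic acids and has its CCTG repeat in an intron. The values in line 1 were 59.5 and 62.6 FPKM after SUPT4H1 siRNA, against 58.5 and 58.7 FPKM in the control samples. Line 2 gave 48.7 and 49.6 FPKM after SUPT4H1 siRNA, against 49.8 and 50.3 FPKM in the control samples. Both SUPT4H1 siRNA samples were above the controls in line 1 and below them in line 2. The log2 difference over both lines was 0.02 (95% interval -0.05 to 0.08, limma adjusted p = 0.669); in line 1 it was 0.06 (-0.01 to 0.13) and in line 2 -0.03 (-0.09 to 0.04).

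ATXN10, NOP56 and PPP2R2B cause ataxias when their repeats expand. ATXN10 (22:46067678-46241187), whose protein is needed for neuronal survival in rodents and whose ATTCT repeat is intronic, stood at 27.5 and 28.2 FPKM after SUPT4H1 siRNA in line 1, against 29.3 and 28.7 FPKM in the control samples. In line 2 it stood at 28.88 and 28.71 FPKM after SUPT4H1 siRNA, against 29.38 and 28.99 FPKM in the control samples. All 4 SUPT4H1 siRNA samples were below the control samples of their own line. The log2 difference was -0.04 (95% interval -0.09 to 0.01, limma adjusted p = 0.210), and it was called after scaling by median ratios (-0.07, limma adjusted p = 0.0332).

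NOP56 (20:2633178-2639039) encodes a core protein of the box C/D ribonucleoproteins that methylate ribosomal RNA, and hosts several small nucleolar RNAs in its introns. Its line 1 samples were at 21.2 and 22.2 FPKM after SUPT4H1 siRNA, against 20.3 and 20.7 FPKM in the control samples. The values in line 2 were 20.2 and 20.4 FPKM after SUPT4H1 siRNA, against 17.6 and 19.1 FPKM in the control samples. The SUPT4H1 siRNA samples were above the control samples in each line. The log2 difference was 0.11 (SE 0.03, limma adjusted p = 0.0246), called in line 2 (0.0226) and not in line 1 (0.196). The line 2 call was lost without its first control sample (0.158) or either SUPT4H1 siRNA sample (0.0659 and 0.0955), and with no filter on FPKM (0.0632). The call over both lines was lost without control line 1 replicate 1, control line 2 replicate 1, SUPT4H1 siRNA line 1 replicate 2 or either SUPT4H1 siRNA sample of line 2 (limma adjusted p = 0.0523 to 0.0706), and after median-ratio scaling (0.0646). The rows of the small RNAs inside NOP56 (SNORD57, SNORD56, SNORD86, SNORD110, SNORA51 and MIR1292) were listed at 0 in all samples. The samples were of polyadenylated RNA, so these values do not show whether the small RNAs were present in the cells.

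PPP2R2B (5:145969067-146461083) encodes a regulatory B subunit of protein phosphatase 2A that is found mainly in neurons. Line 1 gave 0.299 and 0.214 FPKM after SUPT4H1 siRNA, against 0.180 and 0.264 FPKM in the control samples. In line 2 it was listed at 0 in both SUPT4H1 siRNA samples, against 0.0251 and 0 FPKM in the control samples. The siRNA groups overlapped, and the lines differed more than the siRNAs did. The mean difference was 0.0111 FPKM (2-sided exact permutation test over 70 arrangements, p = 0.829, where the smallest possible p is 0.0286). That test took no account of the line, so the spread between the lines enters its p. With no filter on FPKM and the line as block, the log2 difference was 0.01 (limma adjusted p = 0.831). At this level a difference between the siRNAs was not detectable.

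CSTB and TCF4 cause a progressive myoclonus epilepsy and a corneal dystrophy. CSTB (21:45193546-45196256), with its repeat in the promoter, encodes cystatin B, an inhibitor of lysosomal cysteine proteases. In line 1 it stood at 62.9 and 63.8 FPKM after SUPT4H1 siRNA, against 56.5 and 59.6 FPKM in the control samples. Its line 2 samples were at 116 and 112 FPKM after SUPT4H1 siRNA, against 98.6 and 98.5 FPKM in the control samples. The groups were apart in each line, and the lines were further apart than the siRNAs. CSTB was at 109% of the control mean in line 1 and 116% in line 2, a log2 difference of 0.17 (SE 0.03, limma adjusted p = 0.00178). It passed within line 1 (0.0160) and within line 2 (5.99e-04), and the line 1 call was lost without the first control sample (0.141) or either SUPT4H1 siRNA sample (0.0503 and 0.0804).

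TCF4 (18:52889562-53303224), with its CTG repeat in an intron, encodes an E protein, a basic helix-loop-helix transcription factor. The values in line 1 were 27.2 and 26.5 FPKM after SUPT4H1 siRNA, against 28.9 and 27.7 FPKM in the control samples. Line 2 gave 13.7 and 13.6 FPKM after SUPT4H1 siRNA, against 14.8 and 14.7 FPKM in the control samples. The SUPT4H1 siRNA samples were below the control samples in each line. TCF4 was at 94.9% of the control mean in line 1 and 92.4% in line 2, a log2 difference of -0.09 (SE 0.02, limma adjusted p = 0.0175). It was called in line 2 (0.0249) and not in line 1 (0.121), and the difference between the lines was not (0.724). The call over both lines was lost without control line 1 replicate 1 (0.0565) or SUPT4H1 siRNA line 2 replicate 2 (0.0532), and that in line 2 without any 1 of its 4 samples (0.0621 to 0.107).

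**Figure D2:**
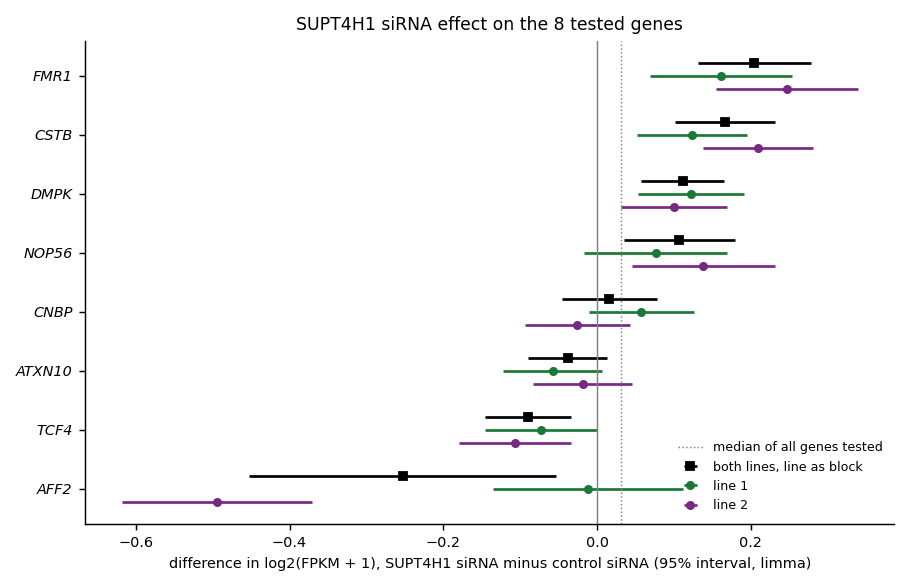
Log2 differences (SUPT4H1 siRNA minus control siRNA) of the 8 tested members in line 1, line 2 and over both lines, with 95% intervals from limma, on a scale of log2(FPKM + 1). The line 1 and line 2 intervals of AFF2 do not overlap, with -0.14 to 0.11 in line 1 and -0.62 to -0.37 in line 2.

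The levels themselves differed between the lines for most members. In the control samples, 7 of the 8 tested members differed between line 2 and line 1, 2 higher and 5 lower in line 2, while 57.9% of all genes tested did. CSTB was 1.70 times as high in line 2 as in line 1 (log2 difference 0.75, limma adjusted p = 3.36e-08), and TCF4 in line 2 was at 0.523 of its line 1 level (log2 difference -0.89, limma adjusted p = 1.19e-08). ATXN10 differed by 0.01 (limma adjusted p = 0.837). In order of mean FPKM over the 8 samples the genes were CSTB, CNBP, DMPK, ATXN10, TCF4, NOP56, FMR1, AFF2 and PPP2R2B, but within line 1 the ranges of CSTB and CNBP overlapped, as did those of ATXN10 and TCF4, and in line 2 TCF4 was below NOP56. In bulk RNA, fewer cells of a type and less RNA per cell cannot be told apart.

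As the series groups its samples 4 against 4 with no line term, 0 of the 8 members were called, and 0 had an unadjusted p under 0.05 (limma adjusted p = 0.245 for FMR1 to 0.959 for CNBP), and 5.36% of all genes tested were. In the fit of 4 group means, 3 members rose and none fell in line 1, also at an unadjusted p under 0.05. By adjusted p, 19.0% of all genes tested were higher and 11.7% lower in line 1 (30.7% in all). In line 2, 4 members rose and 2 fell, where 27.0% of all genes were higher and 15.9% lower by adjusted p (42.9% in all). An unadjusted p under 0.05, in either direction, was found for 4736 of the 11430 genes tested in line 1. With no line term it was found for 2355 of them. In both lines, the SUPT4H1 siRNA samples of 6 of the 8 stood wholly on one side of the control samples, higher for CSTB, DMPK, FMR1 and NOP56 and lower for ATXN10 and TCF4, as 45.4% of all genes tested did (28.8% higher and 16.6% lower). Over all genes, 3072 were higher and 1743 lower, and after scaling by median ratios 2320 were higher and 2311 lower. That scaling left 3 members higher and 3 lower.

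The sign of the log2 difference over both lines divided the tested members by the span of the gene, an ordering seen after the values were known and not tested. The 3 tested members that span more than 100 kb, AFF2 (500 kb), TCF4 (414 kb) and ATXN10 (174 kb), had negative log2 differences, of which AFF2 and TCF4 were called. The 5 shorter ones, from CSTB (2.71 kb) to FMR1 (39.2 kb), had positive ones, of which 4 were called, and CNBP turned to -0.02 after median-ratio scaling. Within line 2, CNBP was at -0.03 also without that scaling. PPP2R2B (492 kb) was too low to be placed in this ordering. Over all tested genes with 1 row, 22.3% of the 1860 that span more than 100 kb were higher and 21.0% lower, against 27.7% and 14.2% of the 9441 shorter genes. The medians of the log2 differences were 0.00 for the longer and 0.03 for the shorter genes. After median-ratio scaling, 16.7% of the longer genes were higher and 27.4% lower, against 21.0% and 18.8% of the shorter ones.

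The AFF family, to which AFF2 belongs, also includes AFF1 and AFF4, scaffolds of the super elongation complex, and AFF3, itself a gene with a folate-sensitive fragile site repeat. AFF3 stood at 4.53 and 4.62 FPKM after SUPT4H1 siRNA in line 1, against 6.71 and 6.65 FPKM in the control samples. In line 2 it stood at 2.93 and 2.66 FPKM after SUPT4H1 siRNA, against 6.04 and 6.02 FPKM in the control samples. AFF3 therefore fell in both lines (log2 difference -0.68, SE 0.08, limma adjusted p = 1.87e-04), and by more in line 2 than in line 1 (difference -0.43, limma adjusted p = 0.00305). AFF1 was higher in the combined test (0.16, limma adjusted p = 0.0353), a call lost without control line 1 replicate 2, SUPT4H1 siRNA line 1 replicate 1 or any 1 sample of line 2 (adjusted p up to 0.101), and after median-ratio scaling (0.0754). Within the lines, AFF1 was called in line 2 (0.27, limma adjusted p = 0.00255) and not in line 1 (0.05, 0.526). AFF4, at 13.9 FPKM after SUPT4H1 siRNA and 13.1 FPKM in the control samples, did not pass (0.08, limma adjusted p = 0.0645).

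**Figure D3:**
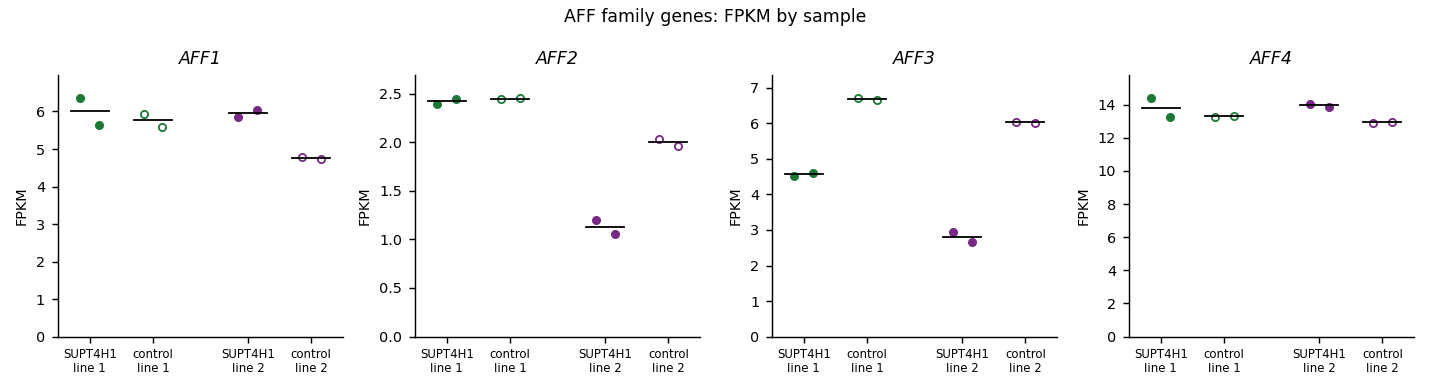
FPKM of AFF1, AFF2, AFF3 and AFF4 in each sample, with SUPT4H1 siRNA samples (filled) left of control siRNA samples (open) for line 1 (green) and line 2 (purple). Bars are means of 2 samples. AFF3 is lower after SUPT4H1 siRNA in both lines, AFF2 in line 2.

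Of the splicing regulators that expanded CUG and CCUG RNA binds or shifts, the MBNL and CELF proteins, 5 of 9 were tested, and 2 rose and 1 fell. MBNL1 fell to 34.3 ± 0.893 FPKM after SUPT4H1 siRNA, against 39.5 ± 0.563 FPKM in control samples (SD, n = 4 each; log2 difference -0.20, limma adjusted p = 4.10e-04), in both lines. MBNL3 rose (0.18, limma adjusted p = 0.0208), a call lost without any 1 of the 4 samples of line 1 (up to 0.0649). It was called in line 1 (0.28, limma adjusted p = 0.00483) and not in line 2 (0.08, 0.294), where it stood at 0.478 to 0.609 FPKM. CELF2 rose to 2.40 and 2.19 FPKM after SUPT4H1 siRNA in line 2, against 1.36 and 1.36 FPKM in the control samples (0.48, limma adjusted p = 6.41e-05), while in line 1 the log2 difference was 0.01 (limma adjusted p = 0.869). Its call over both lines (0.25, limma adjusted p = 0.0422) was lost without any 1 sample of line 2 (0.108 to 0.120) and after median-ratio scaling (0.0647). The list's median log2 difference was 0.04. Over all genes tested, 26.9% were higher and 15.2% lower. Here and below, an SD given with n = 4 spans both lines, while the limma fit takes out the difference between them.

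Of the relatives and partners of FMRP, 10 of 11 were tested, 4 rose and 1 fell, with a median of 0.04. The shares over all genes tested were 26.9% higher and 15.2% lower. The paralogue FXR2 rose to 12.05 ± 0.394 FPKM after SUPT4H1 siRNA, against 10.4 ± 0.423 FPKM in control samples (SD, n = 4 each; log2 difference 0.19, limma adjusted p = 0.00264). HNRNPA2B1, an RNA-binding protein, rose by 0.16 (limma adjusted p = 0.00101), CYFIP1, a member of the WAVE actin-regulating complex, by 0.14 (0.00161), and DROSHA, the nuclear microRNA processing enzyme, by 0.13 (0.0142). The other paralogue, FXR1, fell by 0.09 on the log2 scale (limma adjusted p = 0.0435) and was named after its value was seen.

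Among the neighbours and kinase relatives of DMPK, 7 of 8 were tested, with a median of -0.02. CIT, the citron kinase of cytokinesis, rose to 5.24 ± 0.827 FPKM after SUPT4H1 siRNA, against 3.52 ± 0.223 FPKM in control samples (SD, n = 4 each; log2 difference 0.46, limma adjusted p = 2.94e-04). DMWD, the gene next to DMPK, fell by 0.08 (limma adjusted p = 0.0488, and up to 0.133 without any sample other than SUPT4H1 siRNA line 1 replicate 2). SIX5, on the other side of DMPK, stood at 11.7 FPKM after SUPT4H1 siRNA and 11.8 FPKM in control samples (limma adjusted p = 0.747).

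Protein phosphatase 2A, whose neuronal subunit PPP2R2B encodes, had 14 of 16 listed subunits tested, of which 5 rose and none fell by limma (8 and 0 at an unadjusted p under 0.05), with a median of 0.08. Over all 11430 genes tested, 26.9% were called higher and 15.2% lower, and 5805 had an unadjusted p under 0.05 in either direction. PPP2R1A, the main scaffold subunit, rose to 65.9 ± 9.88 FPKM after SUPT4H1 siRNA, against 57.7 ± 7.17 FPKM in control samples (SD, n = 4 each; log2 difference 0.18, limma adjusted p = 7.69e-04). PPP2R5D, a regulatory subunit, rose by 0.17 (limma adjusted p = 0.00311), the activator PPP2R4 by 0.10 (0.0102), and the catalytic subunit PPP2CA by 0.11 (0.0288, and up to 0.0855 without SUPT4H1 siRNA line 1 replicate 2 or any sample of line 2, and 0.0766 after median-ratio scaling). The 9 box C/D proteins and assembly factors around NOP56 had none called higher and 1 lower by limma (0 and 4 at an unadjusted p under 0.05), with a median of -0.07. FBL, the methyltransferase of these particles, fell to 32.6 ± 6.43 FPKM after SUPT4H1 siRNA, against 39.4 ± 5.79 FPKM in control samples (SD, n = 4 each; log2 difference -0.28, limma adjusted p = 1.90e-04), in both lines. NOP58, the partner of NOP56, stood at 10.77 FPKM after SUPT4H1 siRNA and 11.03 FPKM in control samples (limma adjusted p = 0.425).

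The list of cystatins, and of the cysteine cathepsins that CSTB inhibits, held 19 symbols, of which 17 were in the data and 11 were tested. Of these, 6 rose and none fell by limma (7 and 0 at an unadjusted p under 0.05), with a median of 0.11. Such an unadjusted p was found for 5805 of all 11430 genes tested, in either direction, and 26.9% were called higher and 15.2% lower. All 11 had positive log2 differences over both lines, also after median-ratio scaling (6 higher, median 0.09), while 59.8% of all genes tested did, and 50.3% after that scaling. Within the lines, 10 of the 11 were positive in line 1 and 9 in line 2. CSTA was at 0.49 in line 1 and -0.26 in line 2, and this difference between the lines was called (-0.75, limma adjusted p = 0.0110). CTSK rose to 329 ± 77.9 FPKM after SUPT4H1 siRNA, against 224 ± 30.4 FPKM in control samples (SD, n = 4 each; log2 difference 0.53, limma adjusted p = 6.71e-05). CTSC rose to 149 ± 9.51 FPKM after SUPT4H1 siRNA, against 108 ± 1.59 FPKM in control samples (0.47, limma adjusted p = 2.53e-05). CTSS rose by 0.45 (limma adjusted p = 3.44e-04) and CTSL by 0.13 (0.00468). Of the E and ID proteins around TCF4, 5 of 6 were tested, with a median of 0.02. ID2, which blocks DNA binding by E proteins, fell to 96.8 ± 18.2 FPKM after SUPT4H1 siRNA, against 130 ± 16.2 FPKM in control samples (SD, n = 4 each). Its log2 difference was -0.43 (limma adjusted p = 8.07e-05). ID1 rose by 0.30 (limma adjusted p = 0.0315, and up to 0.0851 without any sample other than control line 1 replicate 2, control line 2 replicate 2 or SUPT4H1 siRNA line 2 replicate 2). ID1 was called in line 1 (0.46, limma adjusted p = 0.00973) and not in line 2 (0.13, 0.351).

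**Figure D4:**
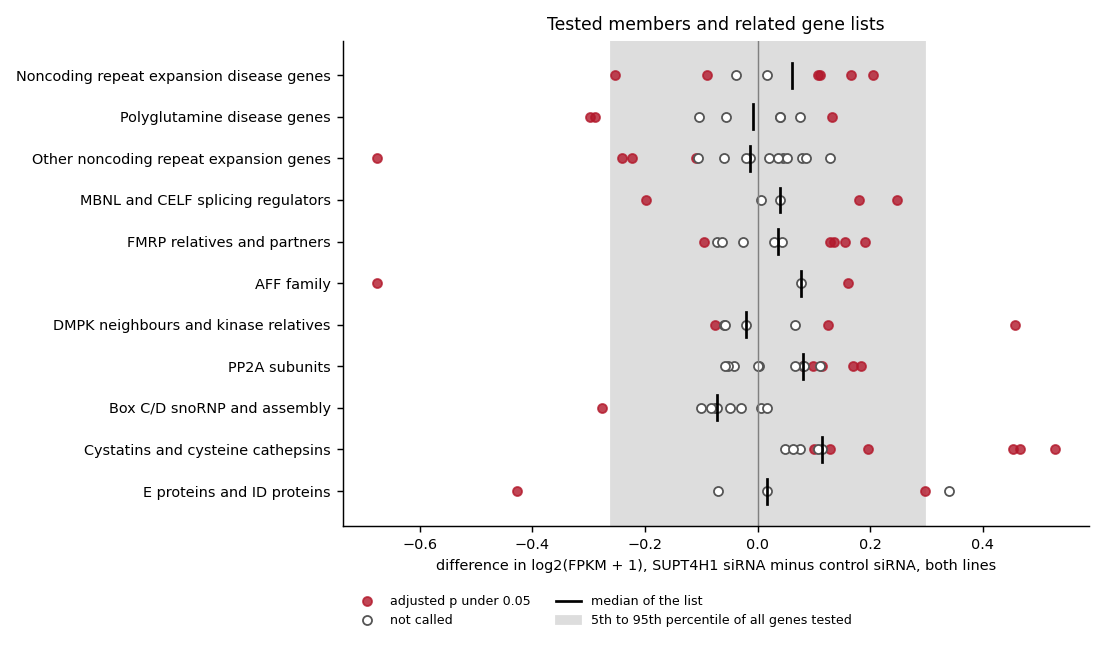
Log2 differences (SUPT4H1 siRNA minus control siRNA, both lines, on log2(FPKM + 1)) of the tested genes of each list, red where limma's adjusted p is under 0.05 and open where not, with the list's median as a black line. Grey is the 5th to 95th percentile of all genes tested, -0.26 to 0.30, and AFF3 at -0.68 is the furthest point outside it.

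A further 24 genes with noncoding repeat expansions or fragile site repeats were listed, of which 15 were tested, none rose and 4 fell by limma (2 and 6 at an unadjusted p under 0.05), with a median of -0.01. Among all 11430 genes tested, 26.9% were called higher and 15.2% lower, and 5805 had an unadjusted p under 0.05 in either direction. Besides AFF3, XYLT1, which starts the sugar chains of proteoglycans, fell by 0.24 (limma adjusted p = 0.00262), and RAPGEF2, a Rap exchange factor, by 0.11 (0.0215, and up to 0.0651 without any 1 sample of line 2). C9orf72 was below the limit for testing, at 0.696 ± 0.0368 FPKM after SUPT4H1 siRNA and 0.692 ± 0.0635 FPKM in control samples (SD, n = 4 each). For comparison, 8 of the 9 polyglutamine disease genes, whose repeats are coding, were tested, and 1 rose and 2 fell, with a median of -0.01. These were ATN1 (0.13, limma adjusted p = 0.00146), CACNA1A (-0.30, 4.27e-04) and ATXN1 (-0.29, 7.05e-04). Of the 29 genes chosen by rule from these lists, 5 were also called with no line term, namely MBNL1, FXR2, AFF3, CIT and CTSC. Of all genes tested, 5.36% were. With no line term the limma adjusted p was 0.480 for PPP2R1A, 0.376 for FBL, 0.147 for CTSK and 0.1505 for ID2. The 29 were chosen by their adjusted p in these same samples, so the second fit is not independent of the first. After median-ratio scaling, 3 protein phosphatase 2A subunits were higher and 1 lower, 0 box C/D genes were higher and 5 lower, and 0 of the further repeat genes were higher and 6 lower. That scaling gave 2320 higher and 2311 lower among all 11430 genes tested.

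The genes whose profile over the 8 samples was nearest to each member were found by the root mean square difference of log2(FPKM + 1) after subtracting each gene's mean. They were SPTBN1, APMAP and SMARCA4 for FMR1 (0.0213 for the nearest), ALDH1L2, SHMT2 and PTK7 for AFF2 (0.0453), GSTM2, LANCL1 and DPF2 for DMPK (0.0152), and LARS, TYW1 and TRMT12 for CNBP (0.0194). For ATXN10 they were VAPB, TBL2 and INTS3 (0.0185), for NOP56 MRPL57, H2AFV and DEDD (0.0162), for CSTB TPGS2, DDR1 and DRAP1 (0.0324), and for TCF4 LDB2, AHR and FOXC1 (0.0446). This is a description of these 8 samples.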

How the data were processed

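The authors deposited FPKM per gene with interval bounds and a status, 1 table per sample of polyadenylated RNA, with hg19 loci per the submitters' processing notes. Not given in the sources used here are the aligner, quantification tool, annotation and use of strand. Reads of genes that overlap on opposite strands therefore cannot be told apart. Rows of one symbol were summed, and genes of mean FPKM at least 1 and status OK in all 8 samples were tested. Before the fit, 2042 symbols of short RNAs and 121 further symbols of the Y chromosome or XIST were left out, a choice made after seeing the data, and 12 genes failed on status. limma 3.58.1 in R 4.3.3, with a variance trend, was fitted to log2(FPKM + 1), 2-sided, with the line as block, and a fit of 4 group means gave the lines and their difference. The script was tested on simulated data. PPP2R2B had an exact permutation test that took no account of the line. Tables were read with pandas 2.3.3 and numpy 2.4.6 under Python 3.11.15, and plots drawn with matplotlib 3.10.9.

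Samples of one line share their cells, and their deviations from the group means correlated at 0.876 to 0.893. From each list, up to 4 called genes were named by smallest adjusted p, or the largest change where none was called, and 2 of these genes are not reported here; AFF4, FXR1, SIX5, NOP58 and C9orf72 were added after their values were seen. The members and lists were chosen with earlier results of these data known. Nothing in the labels says that replicates came from separate cultures, so the p-values reflect the spread between the samples at hand, possibly technical. FPKM are relative values, so a few abundant transcripts can move all others. Alternatives were the block, pseudocount, filter, scaling, variance trend, repeated symbols, the symbols left out, and each sample left out in turn.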

Additional observations from a re-analysis of the deposited data

Results flagged for a closer look

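The response to SUPT4H1 siRNA differed between the lines for 6 of the 38 genes checked, by limma's test of the difference itself. Those checked were the 9 members, of which PPP2R2B had no such test, and the 29 genes chosen by rule. The response differed for 9.89% of all genes tested. CSTA and CNN1, whose differences were called above, were not among the genes checked. AFF2 fell in line 2 and not detectably in line 1 (difference of log2 changes, line 2 minus line 1, -0.48, adjusted p = 0.00431). AFF3 fell in both lines, by more in line 2 (-0.43, adjusted p = 0.00305), and so did ATXN1 (-0.20, adjusted p = 0.0366). CELF2 rose in line 2 and not detectably in line 1 (0.47, adjusted p = 0.00367). CTSK rose by more in line 2 (0.26, adjusted p = 0.00322), and CTSC by more in line 1 (-0.18, adjusted p = 0.0185).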

How the results depend on the processing

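With no replicate block (no line term), 409 genes were higher and 204 lower, in place of 3072 and 1743, and 0 members were higher and 0 lower, in place of 4 and 2. At a mean FPKM of at least 10 the counts were 1801 and 925, with fewer genes tested. Adding the replicate number to the line as a replicate block left 1 member lower, TCF4, the call of AFF2 being lost, as did no filter on FPKM and keeping all symbols, and the filter at 10, under which AFF2 was not tested, also left TCF4. The labels do not say whether the replicate numbers pair the samples. Deviations with the same number within a line correlated at 0.103 and 0.0487, which cannot settle this. Leaving out 1 sample in turn gave 2485 to 2927 higher and 1406 to 1654 lower genes, 3 to 4 members higher and 0 to 2 lower. CNBP, not called, changed sign after scaling by median ratios (-0.019) and without SUPT4H1 siRNA line 1 replicate 2 (-0.0067, in a range up to 0.030 without 1 sample). DMPK's difference between the lines, not called, changed sign without control line 1 replicate 2 (0.0099, in a range from -0.054). The causes were not tested. The fall of AFF2 in line 2 and its difference between the lines were called in 8 of 8 fits without 1 sample and in 6 of 6 others. The number of fragments is unknown, so what depth limits was not tested, and the deposited intervals were widest for PPP2R2B.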
